A study of Homo sapiens with 32 samples.

Results

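The heat shock chaperones and their transcription factor HSF1 were followed in RH4 cells, an established line of human alveolar rhabdomyosarcoma, a cancer of skeletal muscle lineage. The group held 10 of the 18980 coding genes in each deposited table and was chosen by gene symbol: HSF1, HSPA1A, HSPA1B, HSPA8, HSPH1, DNAJB1, DNAJA1, HSP90AA1, HSPB1 and BAG3. All 10 passed the filter on low counts. HSPA1A and HSPA1B are near-identical copies between which reads cannot be split with certainty, so each is given with their sum. The cells had received a compound aimed at the acetyltransferases CBP and p300: A485, an inhibitor of their catalytic activity, dCBP or JQAD, which are degraders, or IHK-44, known here by its code name. Each was given at 100 nM and at 1000 nM for 2 h and for 6 h, which makes 16 treated RNA-seq libraries. The 4 control libraries were DMSO (the solvent) and NT, an abbreviation left unexplained in the labels, at the same times. All 20 came from the RH4 line, for which the labels name no engineered allele. With a single library per condition, nothing was replicated at a fixed dose and time. The ChIP-seq and ChRO-seq samples of the series were not analysed here.

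HSF1 is held inactive by chaperones in unstressed cells; when unfolded proteins draw the chaperones away, it forms trimers, binds heat shock elements and switches on chaperone genes. HSP70 proteins hold unfolded stretches of protein, J-domain proteins of the DNAJ family bring them clients and start their ATPase cycle, and nucleotide exchange factors such as HSP110 and BAG3 end it. HSP90 acts late in folding, and small heat shock proteins keep unfolded proteins from clumping. CBP and p300 acetylate histones at enhancers and promoters, and HSF1 is among the other proteins that they are known to acetylate.

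Coding genes received between 13466631 and 16799327 expected counts per library. Within the group the expected counts ran from 382 (BAG3) to 38473 (HSPA8), so counting error was at most 5.12% of a value and small beside the differences described below. Of the muscle markers, all 6 of the list (MYOD1, MYOG, DES, PAX3, FGFR4 and CDH15) were detected, and their summed level was 2442.5 to 2662.6 CPM (expected counts scaled to the same coding total in every library) in the DMSO and NT libraries. It was 1444.9 to 2444.4 CPM with A485, 1218.5 to 2177.7 CPM with dCBP, 1143.3 to 2163.2 CPM with IHK-44 and 2539.7 to 2970.4 CPM with JQAD. The 6 markers of other cell types summed to 0.331 to 1.91 CPM, with EPCAM at 0 in all 20 libraries. Reads outside the coding genes were 5.63% to 6.43% in the DMSO and NT libraries, 4.64% to 6.37% with A485, 8.36% to 11.3% with dCBP, 8.2% to 9.58% with IHK-44 and 5.72% to 7.46% with JQAD. The part that these shares and the marker levels play in the results was not tested. In CPM the median gene itself lay up to 0.22 (log2) above DMSO in the treated libraries, a shift that the TMM scaling of the fits largely removes. In bulk RNA, a change in the number of cells of a state and a change in RNA per cell cannot be told apart.

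The promoters of the 4 genes that later rose are shown first, since HSF1 acts through short inverted repeats of GAA. The windows are the 250 bases before the annotated start, from RefSeq on GRCh38.p14, written 5' to 3' on the strand of the gene. Capitals mark each 8-base core of 2 facing repeats, GAANNTTC or TTCNNGAA; each pattern is its own reverse complement, so both strands are covered. The windows are chr6:31815293-31815542 (plus strand) for HSPA1A, chr6:31827488-31827737 (plus strand) for HSPA1B, chr19:14518398-14518647 (minus strand) for DNAJB1 and chr10:119651130-119651379 (plus strand) for BAG3.
HSPA1A: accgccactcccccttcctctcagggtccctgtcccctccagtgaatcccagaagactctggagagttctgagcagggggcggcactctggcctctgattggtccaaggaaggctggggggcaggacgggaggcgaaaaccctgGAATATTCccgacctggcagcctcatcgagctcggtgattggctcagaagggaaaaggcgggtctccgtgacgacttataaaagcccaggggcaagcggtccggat
HSPA1B: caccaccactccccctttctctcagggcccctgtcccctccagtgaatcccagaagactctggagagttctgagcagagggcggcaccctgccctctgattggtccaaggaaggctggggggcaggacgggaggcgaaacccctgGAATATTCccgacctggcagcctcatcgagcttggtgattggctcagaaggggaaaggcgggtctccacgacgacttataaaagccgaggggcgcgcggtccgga
DNAJB1: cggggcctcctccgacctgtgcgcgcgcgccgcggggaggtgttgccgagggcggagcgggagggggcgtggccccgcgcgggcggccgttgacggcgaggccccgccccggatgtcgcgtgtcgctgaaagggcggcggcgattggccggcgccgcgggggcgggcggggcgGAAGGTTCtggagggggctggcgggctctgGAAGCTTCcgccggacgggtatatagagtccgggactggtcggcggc
BAG3: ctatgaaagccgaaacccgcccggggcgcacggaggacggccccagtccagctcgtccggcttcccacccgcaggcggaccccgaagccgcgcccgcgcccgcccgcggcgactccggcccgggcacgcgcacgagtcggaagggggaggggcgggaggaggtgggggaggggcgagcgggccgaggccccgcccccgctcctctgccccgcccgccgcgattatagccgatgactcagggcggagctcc
HSPA1A and HSPA1B shared 235 of 249 aligned bases (94.4%), with the same core, GAATATTC, 99 to 106 bases before the start in HSPA1A and 98 to 105 before it in HSPA1B. Both also held a TATA box (TATAAA), which 6.8% of all 35116 windows of this length held. The printed DNAJB1 window, 1 of 3 annotated starts, held GAAGGTTC and GAAGCTTC, while the windows of the other DNAJB1 starts held no core. The BAG3 window held no core either. A core was present in 7 of the 12 windows of the 9 members in the table (58.3%), against 11.6% of all windows. Of members that did not rise with a compound, HSPA8 held 4 cores, HSP90AA1 held 3 in 1 of its 2 windows, HSPB1 and DNAJA1 held 1 each and HSPH1 held none. A longer array of 3 alternating repeats, in which a core is followed after 2 further bases by GAA or TTC and which therefore contains 2 cores, was present in HSPA8 and HSP90AA1 and in 0.441% of all windows. The CpG observed-to-expected ratio was 0.51 in HSPA1A and 0.53 in HSPA1B, the lowest of the members, and 0.97 in BAG3. It was 1.14 in the printed DNAJB1 window, 0.75 and 0.9 in the other DNAJB1 windows and 0.56 at the median of all windows. A match describes letters in a window and is no evidence of binding.

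Levels without a compound are compared per length of transcript, as FPKM in the DMSO library at 2 h. HSPA8, the constitutive HSP70 of the cytosol, was highest at 879.5 FPKM, followed by the small heat shock protein HSPB1 at 660.5 FPKM and HSP90AA1, the inducible cytosolic HSP90, at 380.9 FPKM. HSPH1, an HSP110, stood at 88.2 FPKM and DNAJA1, a J-domain partner of HSP70, at 58.2 FPKM. HSF1 stood at 45.0 FPKM, HSPA1A at 41.4, DNAJB1 at 32.6, HSPA1B at 26.8 and BAG3 at 11.8 FPKM. HSPA1A, HSPA1B, DNAJB1 and BAG3 were thus the lowest with HSF1, and 1 library gives no spread by which to order close neighbours such as HSF1 and HSPA1A.

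The calls differed by member, and a difference in response between members was not tested. HSPA1A, HSPA1B, DNAJB1 and BAG3 rose with dCBP and with IHK-44 at 6 h, and HSPA1A, HSPA1B and BAG3 rose with A485. By edgeR, HSF1 and the abundant chaperones were called for no compound against the controls, and no member was called for JQAD. The fits were made with edgeR's quasi-likelihood test, and a member is called changed at a Benjamini-Hochberg adjusted p under 0.05 over all genes tested. HSPA1A and HSPA1B share reads, so in every count of members they are not independent of each other. Since each condition had 1 library, the 4 libraries given the same compound, or the 2 of them at 1 time, stood in for replicates. The p-values therefore measure the spread between these libraries, doses included. In the fit over both times that spread also takes in changes of a compound's effect between 2 h and 6 h.

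HSF1 RNA was at 87.5 to 89.2 CPM in the 2 control libraries at 2 h and 85.9 to 89.1 CPM at 6 h. Over the treated libraries it ran from 83.0 CPM, in both A485 libraries at 6 h, to 110.0 CPM with 100 nM dCBP at 6 h. That dCBP library was 1.23 times DMSO (95% counting interval 1.15 to 1.33, counting error only), while the 1000 nM library of the same compound and time was 1.03 times DMSO (0.96 to 1.12). The treated and control libraries overlapped. At 6 h the fitted log2 change against the pooled DMSO and NT libraries was 0.05 (95% interval -0.16 to 0.27) for dCBP, -0.14 (-0.36 to 0.07) for IHK-44, -0.16 (-0.38 to 0.05) for A485 and 0.06 (-0.16 to 0.28) for JQAD. None was called in counts. On the authors' TPM HSF1 was called lower with IHK-44 at 6 h (-0.44) and over both times (-0.43), and with dCBP at 2 h (-0.43). HSF1 activity is set mainly after translation, so its RNA level is not a readout of it.

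HSPA1A and HSPA1B encode the same stress-inducible HSP70, the textbook target of HSF1. Their sum was 159.5 CPM in DMSO and 150.6 CPM in NT at 2 h, and 199.0 CPM and 182.1 CPM at 6 h. With dCBP it was 199.2 CPM (100 nM) and 233.5 CPM (1000 nM) at 2 h, and 609.2 CPM and 549.6 CPM at 6 h. With IHK-44 it was 195.4 CPM and 207.8 CPM at 2 h, and 451.6 CPM and 547.0 CPM at 6 h. These 4 libraries at 6 h were above the other 16. All 8 dCBP and IHK-44 libraries were above the control libraries of their time, as were all A485 libraries, given next. The share of all genes separated in these ways was not computed. At 6 h 23.2% of all genes were called higher with dCBP and 20.7% with IHK-44 (edgeR). With A485 the sum was 186.2 CPM and 203.7 CPM at 2 h, and 227.9 CPM and 387.4 CPM at 6 h, so that the 1000 nM library at 6 h stood apart from the 100 nM library. With JQAD it was 157.4 CPM and 163.1 CPM at 2 h, and 182.6 CPM and 206.9 CPM at 6 h, within or close to the control range. As ratios to the DMSO library at 6 h, the sum was 3.06-fold with 100 nM dCBP (95% counting interval 2.94 to 3.19), 2.76-fold with 1000 nM dCBP, 2.27-fold with 100 nM IHK-44 and 2.75-fold with 1000 nM IHK-44. A485 gave 1.15-fold at 100 nM and 1.95-fold at 1000 nM. JQAD gave 0.92-fold at 100 nM and 1.04-fold at 1000 nM, beside 0.92-fold for NT.

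**Figure D1:**
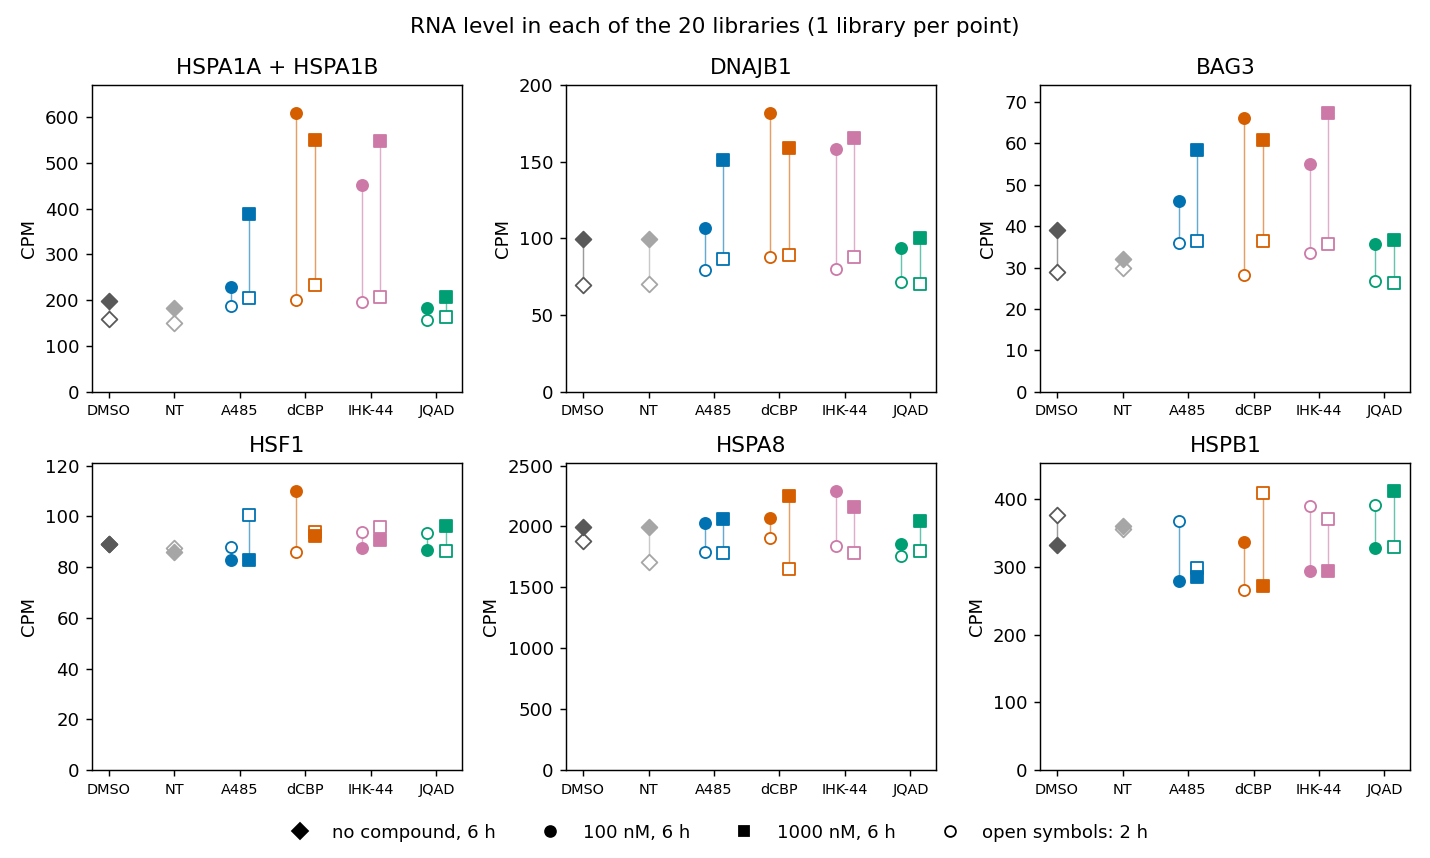
RNA level in CPM (y axis, from 0) of HSPA1A plus HSPA1B, DNAJB1, BAG3, HSF1, HSPA8 and HSPB1 in each of the 20 libraries, by condition (x axis); open symbols are 2 h, filled symbols 6 h, circles 100 nM, squares 1000 nM and diamonds the DMSO and NT libraries. The dCBP and IHK-44 libraries at 6 h sit at 451.6 to 609.2 CPM for HSPA1A plus HSPA1B, above all other libraries, while HSF1 stays between 83.0 and 110.0 CPM.

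In the fit at 6 h the sum rose with dCBP by a log2 change of 1.45 (SE 0.16, edgeR adjusted p = 8.68e-06), a fitted fold of 2.73, and with IHK-44 by 1.22 (SE 0.16, adjusted p = 2.29e-05), a fitted fold of 2.33. With A485 it rose by 0.59 (SE 0.16, adjusted p = 0.0206), a fitted fold of 1.51. For JQAD the change was 0.03 (95% interval -0.31 to 0.36). HSPA1B had the larger fitted change of the copies, 1.73 (SE 0.21) against 1.23 (SE 0.14) for HSPA1A with dCBP and 1.45 (SE 0.21) against 1.05 (SE 0.14) with IHK-44. The difference between the copies was not tested, and it rests on how the counting program split shared reads. HSPA1B made up 36.2% to 41.1% of the sum in the control libraries and 43.9% to 48.4% in the dCBP and IHK-44 libraries at 6 h, which do not overlap. The share was also above the controls with JQAD at 6 h (42.5% and 43.3%), where the sum was not called, and with 1000 nM A485 at 6 h (43.6%). It was 37.1% to 44.5% in the treated libraries at 2 h.

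DNAJB1, the J-domain protein that works with inducible HSP70 and an HSF1 target, was at 69.4 CPM (DMSO) and 70.3 CPM (NT) at 2 h and at 99.6 CPM in both controls at 6 h. At 6 h it was 182.0 CPM and 159.0 CPM with 100 nM and 1000 nM dCBP, and 158.3 CPM and 165.3 CPM with IHK-44. A485 gave 107.1 CPM at 100 nM and 151.2 CPM at 1000 nM, and JQAD gave 93.5 CPM and 100.6 CPM. All dCBP, IHK-44 and A485 libraries at 6 h were above the controls, by little for 100 nM A485. The share of all genes ordered in this way was not computed. In the fit at 6 h DNAJB1 rose with dCBP by 0.62 (SE 0.11, edgeR adjusted p = 0.000348) and with IHK-44 by 0.53 (SE 0.11, adjusted p = 0.00123). With A485 the fitted change was 0.28 (SE 0.11, adjusted p = 0.0912), which did not pass.

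BAG3, a nucleotide exchange factor that links HSP70 to autophagy and to small heat shock proteins, was at 28.9 CPM (DMSO) and 29.9 CPM (NT) at 2 h and at 39.1 CPM and 32.1 CPM at 6 h. At 6 h it was 66.2 CPM and 60.9 CPM with 100 nM and 1000 nM dCBP, 55 CPM and 67.4 CPM with IHK-44, and 46.0 CPM and 58.5 CPM with A485. JQAD gave 35.7 CPM and 36.7 CPM, between the controls. The fitted change at 6 h was 0.68 (SE 0.13, edgeR adjusted p = 0.000738) with dCBP, 0.61 (SE 0.13, adjusted p = 0.00175) with IHK-44 and 0.46 (SE 0.13, adjusted p = 0.0287) with A485. BAG3 is the lowest of the members, and its DMSO and NT libraries at 6 h differed by 1.22-fold. With the DMSO libraries alone as the control, BAG3 with IHK-44 at 6 h had a log2 change of 0.47 (adjusted p = 0.0526). On the authors' TPM, in place of counts, the 6 h changes of DNAJB1 and BAG3 kept their direction but did not pass: DNAJB1 0.29 and BAG3 0.34 with dCBP, and 0.22 and 0.29 with IHK-44. The sum of HSPA1A and HSPA1B did pass on TPM, with 1.11 (adjusted p = 0.000247) and 0.90 (adjusted p = 0.00176).

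At 6 h, 4 of the 10 members thus rose with dCBP (background: 23.2% of 13260 genes called higher), and the same 4 with IHK-44 (background 20.7%). With A485 3 rose, HSPA1A, HSPA1B and BAG3 (background 7.87%). With JQAD 0 members were called (background 0%; 0 members and 284 genes at an unadjusted p under 0.05, and 0 members with DESeq2 or limma). Given backgrounds above 20%, counts of 4 in 10 are not far from the share of all genes for dCBP and IHK-44. The median member changed by 0.10 with dCBP and 0.14 with IHK-44, beside 0.06 for the median of all genes in both. For A485 the count fell to 0 without the 1000 nM A485 library at 6 h (the sum then at 0.22, adjusted p = 0.449) or without the NT library at 6 h (0.54, adjusted p = 0.146), and to 1 without the DMSO library at 6 h. It was also 0 with DMSO or NT alone as the control. The A485 rise therefore rests on few libraries. For dCBP and IHK-44 the same 4 passed without any 1 library, and HSPH1 (dCBP) or HSPB1 (IHK-44) was called lower besides without some libraries.

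**Figure D2:**
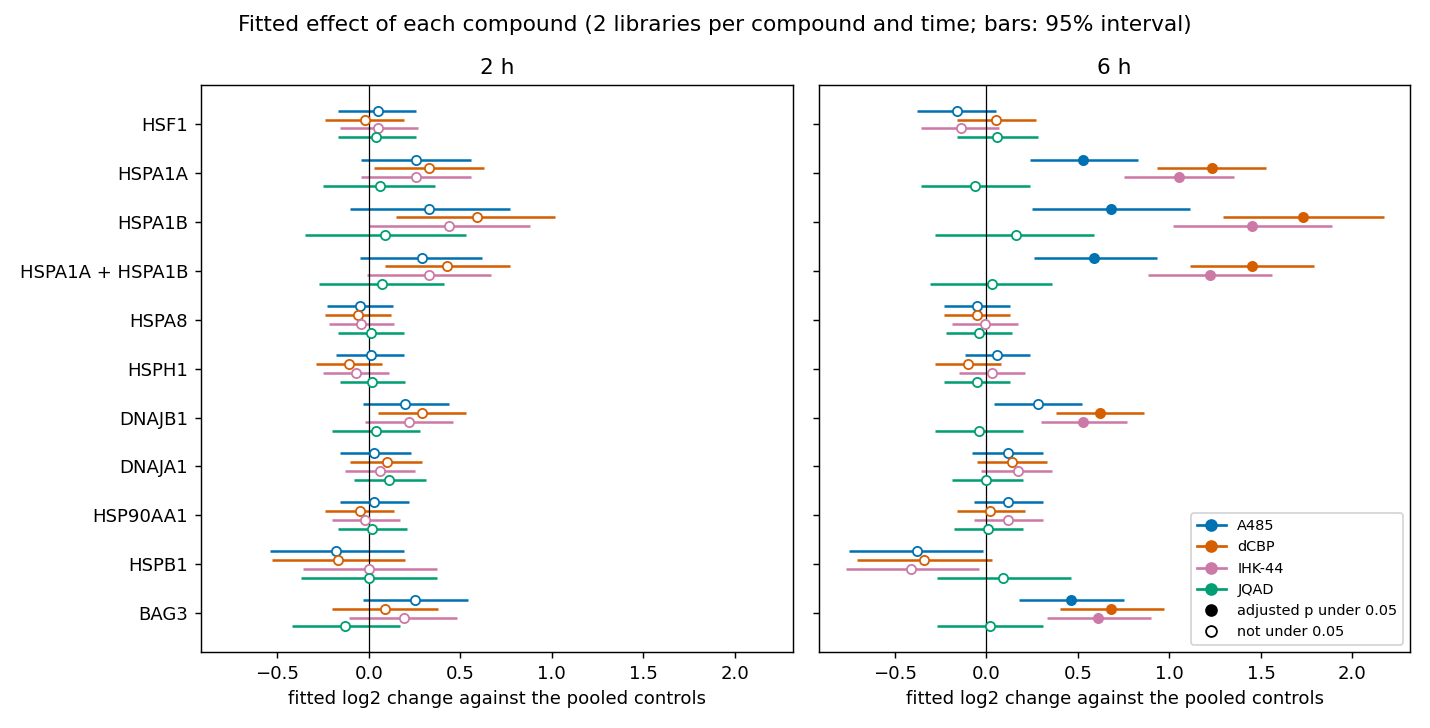
Fitted log2 change against the pooled DMSO and NT libraries at 2 h (left) and 6 h (right) for each member and the sum (y axis), by compound (colour); bars are 95% intervals and filled points have an adjusted p under 0.05. At 6 h the sum reaches 1.45 with dCBP and 1.22 with IHK-44, while no point is filled at 2 h or for JQAD.

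At 2 h, 0 members were called for any compound by edgeR. The background at 2 h, in either direction, was 5.63% of genes called for dCBP and 4.88% for IHK-44. It was 0.0452% for A485 and 0% for JQAD. At an unadjusted p under 0.05 there were 3 members for dCBP, 1 for IHK-44 and 0 for A485 and JQAD (138 genes for JQAD). DESeq2 and limma on CPM gave 0 members at 2 h. For dCBP the count was 2 without the 1000 nM A485 library at 6 h and 1 without the 100 nM A485 library at 6 h. On TPM 4 members were called lower for dCBP and 3 for IHK-44, none of them HSPA1A, HSPA1B, DNAJB1 or BAG3. The fitted changes of the sum at 2 h were 0.43 (95% interval 0.09 to 0.77, adjusted p = 0.119) with dCBP and 0.33 (-0.01 to 0.67) with IHK-44. They were 0.29 (-0.05 to 0.62) with A485 and 0.07 (-0.27 to 0.41) with JQAD. The change of the compound effect from 2 h to 6 h was itself tested. It was positive for the sum with dCBP, 1.02 (SE 0.22, adjusted p = 0.0127), and with IHK-44, 0.89 (SE 0.22, adjusted p = 0.019). By this test 2 members, HSPA1A and HSPA1B, were called for dCBP (background 2.66% called in this direction) and the same 2 for IHK-44 (background 2.13%). These copies share reads, so their calls are not independent. BAG3 gave 0.59 (SE 0.19, adjusted p = 0.0655) with dCBP and did not pass in this fit. It did pass with DESeq2 (0.60, adjusted p = 0.0405), limma on CPM (0.70, adjusted p = 0.0342) and edgeR without the filter on low counts (0.60, adjusted p = 0.0476). For A485 (background 0.00754%) and JQAD (background 0%, with 222 genes at an unadjusted p under 0.05) 0 members were called, also at an unadjusted p under 0.05 and with DESeq2 or limma. With the DMSO or the NT libraries alone as the control, 0 members were called for the time dependence of any compound. The estimates for the sum then stayed between 0.89 and 1.04 for dCBP and IHK-44, with adjusted p from 0.12 to 0.163. Leaving out a library took the dCBP count to 0 without the NT library at 6 h or the 100 nM dCBP library at 2 h, and to 1 without the DMSO library at 2 h or the 100 nM dCBP library at 6 h. The IHK-44 count went to 0 without any 1 of the 4 control libraries, the 1000 nM library at 6 h or the 100 nM library at 2 h, and to 1 without the 1000 nM library at 2 h.

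The other chaperones showed a change with time that the controls shared. HSPH1 went from 331.4 CPM to 425.8 CPM in DMSO and from 331.7 CPM to 395.5 CPM in NT between 2 h and 6 h. DNAJB1 went from 69.4 CPM to 99.6 CPM in DMSO and from 70.3 CPM to 99.6 CPM in NT. Across the 20 libraries 8 members rose from 2 h to 6 h (background 18.6% of genes called higher): HSPA1A, HSPA1B, HSPA8, HSPH1, DNAJB1, DNAJA1, HSP90AA1 and BAG3. The time term was 0.33 (SE 0.04, edgeR adjusted p = 2.88e-05) for HSPH1 and 0.64 (SE 0.06, adjusted p = 1.02e-05) for DNAJB1, and 0.15 to 0.16 for HSPA8, DNAJA1 and HSP90AA1. For HSPA1A, HSPA1B, DNAJB1 and BAG3 the term mixes the shared change with the response at 6 h, since it is averaged over all conditions. The exceptions were HSF1, with -0.07 (adjusted p = 0.261), and HSPB1, with -0.22 (adjusted p = 0.0519), which was called lower with DESeq2 (adjusted p = 0.0392), with RLE scaling (adjusted p = 0.0499) and without any 1 of 7 libraries. On TPM 5 members rose and HSPB1 fell, and HSPA8, DNAJA1 and HSP90AA1 kept their direction at 0.14 each without passing. Within a condition, hours of treatment and hours in culture cannot be told apart.

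By edgeR, HSPA8, HSPH1, DNAJA1 and HSP90AA1 were called for no compound against the controls, whether over both times or at 1 time. With limma on CPM, which leaves the shift of the median gene in place, DNAJA1 was called higher at 6 h with IHK-44 (0.33, adjusted p = 0.00858) and dCBP (0.29, adjusted p = 0.0165), and HSP90AA1 with IHK-44 (0.29, adjusted p = 0.0186). Without the 1000 nM dCBP library at 6 h, edgeR called HSPH1 lower with dCBP (-0.23, adjusted p = 0.0344). On TPM HSPA8 was called lower over both times with dCBP and IHK-44 and HSPH1 with dCBP, and DNAJA1, HSP90AA1 and HSPH1 were called higher at 6 h with A485. HSPA8 at 6 h was 1992.1 to 1998.7 CPM in the controls, 2066.2 to 2246.1 with dCBP, 2161.1 to 2290.2 with IHK-44, 2027.1 to 2063.9 with A485 and 1859.7 to 2042.7 CPM with JQAD. The dCBP and IHK-44 libraries lay above the controls in CPM, yet the fits, which allow for the shift of the median gene, gave -0.05 (95% interval -0.23 to 0.13) for dCBP and -0.01 (-0.19 to 0.17) for IHK-44. HSP90AA1 was at 1275.6 to 1278.0 CPM in the controls at 6 h, 1272.3 and 1631.2 CPM with 100 nM and 1000 nM dCBP, and 1576.9 and 1548.1 CPM with IHK-44. Its fitted change was 0.02 (-0.16 to 0.21) with dCBP and 0.12 (-0.07 to 0.31) with IHK-44. DNAJA1 gave 0.14 (-0.05 to 0.33) and 0.17 (-0.03 to 0.36), and HSPH1 gave -0.10 (-0.28 to 0.08) and 0.03 (-0.15 to 0.21). These intervals, up to 0.36, lie below those of HSPA1A and HSPA1B for the same compounds.

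HSPB1, the most abundant small heat shock protein here, ran the other way in the point estimates. At 6 h it was 332.9 CPM in DMSO and 359.6 CPM in NT, 278.8 and 284.6 CPM with 100 nM and 1000 nM A485, 336.4 and 271.6 CPM with dCBP, and 294.1 and 293.6 CPM with IHK-44. JQAD gave 327.8 and 411.8 CPM. The fitted changes at 6 h were -0.38 (95% interval -0.75 to -0.02, edgeR adjusted p = 0.133) with A485, -0.34 (-0.71 to 0.03) with dCBP and -0.41 (-0.77 to -0.04, adjusted p = 0.0702) with IHK-44, none of which passed. On TPM HSPB1 was called lower at 6 h with dCBP and IHK-44, and it was called lower with IHK-44 by DESeq2 (-0.43, adjusted p = 0.0296), by edgeR without the filter on low counts (-0.41, adjusted p = 0.0279) and without either dCBP library at 2 h. HSPB1 was also variable at 2 h, from 266.4 CPM (100 nM dCBP) to 409.3 CPM (1000 nM dCBP).

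**Figure D3:**
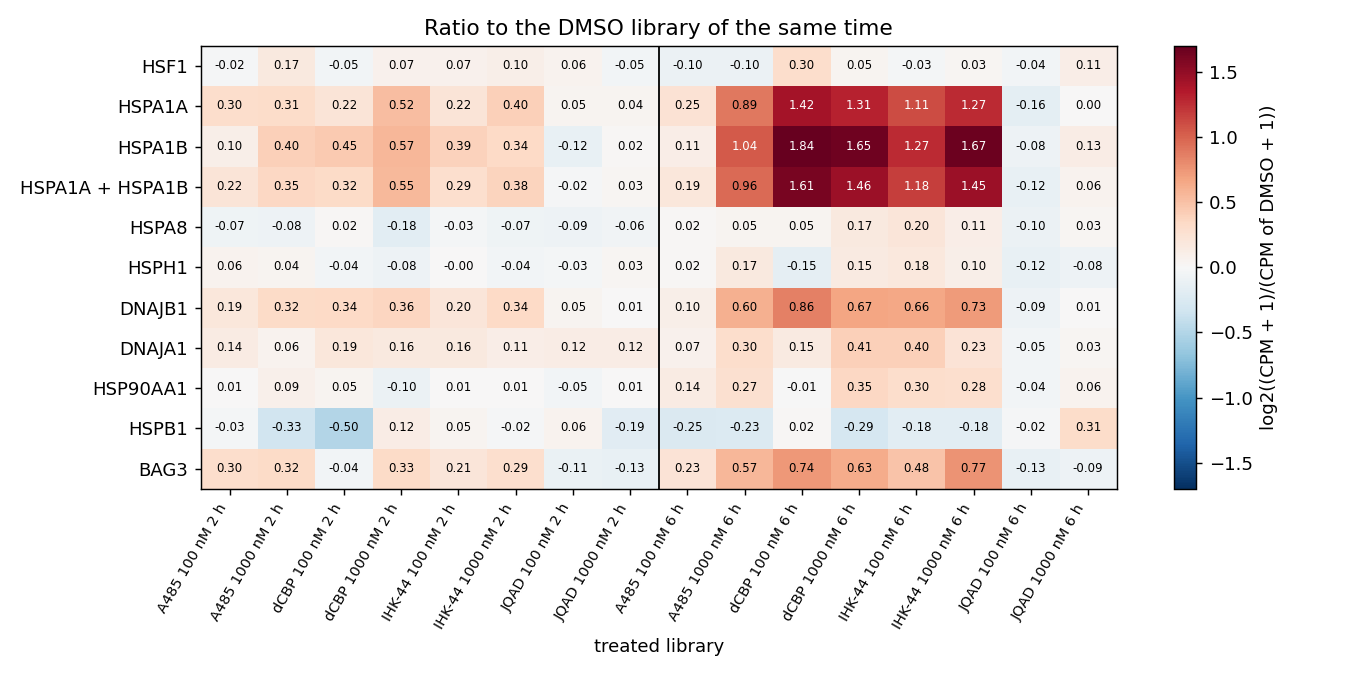
Log2((CPM + 1)/(CPM of DMSO + 1)) of each member and the sum (rows) in the 16 treated libraries (columns), each against the DMSO library of its time, with 2 h left of the line and 6 h right of it; no correction for the median gene. The values above 1 are all in HSPA1A, HSPA1B and their sum at 6 h, in the dCBP and IHK-44 libraries and, for HSPA1B, 1000 nM A485.

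In single libraries, a ratio of at least 1.5-fold to DMSO on the log2(CPM + 1) scale was reached upward in 18 of 160 pairs of a member and a treated library. The background was 8.28% of all gene and library pairs. All 18 were at 6 h. They comprised 4 members in each dCBP library and in 1000 nM IHK-44, and 3 each (HSPA1A, HSPA1B and DNAJB1) in 100 nM IHK-44 and 1000 nM A485. No member was 1.5-fold lower in any treated library, beside 4.94% of all pairs. After centring each library on its median gene, 11 pairs were at least 1.5-fold higher, and on TPM 11 pairs were at least 1.5-fold lower. The share of all pairs was not computed after centring or on TPM, so these 2 counts have no background.

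Averaged over both times, dCBP against DMSO called 3 members higher, HSPA1A, HSPA1B and DNAJB1 (background 11.8%), with the sum at 0.90 (SE 0.25, edgeR adjusted p = 0.021). IHK-44 against DMSO called 1, DNAJB1, at 0.38 (SE 0.12, adjusted p = 0.0444; background 7.74%), and the sum at 0.72 (SE 0.25, adjusted p = 0.0555) did not pass. This fit takes each compound's effect as equal at 2 h and 6 h, so a change of the effect with time widens the SE. A485 (background 0.271%), JQAD (background 0%) and NT (background 0%) called 0 members, also at an unadjusted p under 0.05, where JQAD had 143 genes and NT 104. DESeq2 and limma on CPM also gave 0 members for these 3. The dCBP count was 0 without the DMSO library at 6 h, with the sum at 0.67 (adjusted p = 0.311), and 0 in a fit on the dCBP and control libraries alone. The IHK-44 call sits at the threshold. Its count was 0 without the DMSO or NT library of either time. It was 0 without the 1000 nM or 100 nM A485 library at 2 h, either 1000 nM dCBP library, either IHK-44 library at 6 h, or any JQAD library other than the 100 nM one at 6 h. The count was 3 without either 100 nM dCBP library or the 100 nM IHK-44 library at 2 h, and 2 without the 100 nM A485 library at 6 h. On TPM no member was higher in either comparison, and HSPA8 and HSPB1 were called lower in both. HSF1 was also called lower on TPM with IHK-44, and HSPH1 with dCBP. 

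The compounds were compared with each other at the same doses and times in 6 pairs, with p-values adjusted over all genes within each pair. At 6 h the sum was higher with dCBP than with A485 by 0.86 (95% interval 0.52 to 1.19, edgeR adjusted p = 0.00215) and with IHK-44 than with A485 by 0.63 (0.29 to 0.96, adjusted p = 0.0174) in coding counts. On TPM the second difference turned to -0.08. On that scale HSPA1A was also lower, by -0.02, with dCBP than with A485 and by -0.19 with IHK-44 than with A485, and DNAJB1 by -0.39 with dCBP than with A485. In the fit on counts, dCBP was above A485 in 3 members at 6 h, HSPA1A, HSPA1B and DNAJB1 (background 12.3%), and IHK-44 was above A485 in 2, HSPA1A and HSPA1B (background 3.47%). These counts fell to 1 and 0 without the 100 nM A485 library at 6 h. The IHK-44 count was also 0 without the 1000 nM IHK-44 library at 6 h, and the dCBP count was 6 without the 1000 nM dCBP library at 6 h, with HSF1 higher and HSPH1 and HSP90AA1 lower. Over both times, 0 members were called for dCBP against A485 (background 0.724%; 4 members at an unadjusted p under 0.05) and for IHK-44 against A485 (background 0.882%; 0 members). DESeq2 and limma on CPM gave 0 members for these 2 pairs, and 1 was called for dCBP without the 100 nM dCBP library at 2 h. On TPM 8 members were lower with dCBP and 9 with IHK-44 than with A485 over both times. Coding rows as a whole held less of TPM with dCBP (27.9% to 35.4%) and IHK-44 (31.2% to 34.6%) than with A485 (43.0% to 53.9%). The share of all genes called on TPM was not computed, so these counts cannot be set apart from that general shift.

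IHK-44 and dCBP did not differ in any member by edgeR, over both times (background 0%; 0 members and 883 genes at an unadjusted p under 0.05) or at 6 h (background 0.00754%; 0 members at an unadjusted p under 0.05). DESeq2 and limma gave 0 members here too. For the sum at 6 h the difference of IHK-44 from dCBP was -0.23 (95% interval -0.56 to 0.10), an interval that holds both no difference and a lower level with IHK-44. Without the 1000 nM dCBP library at 6 h the count was 3, HSF1 lower and HSPH1 and HSP90AA1 higher with IHK-44.

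JQAD was below dCBP and IHK-44 in the same 4 members that those compounds raised. Over both times JQAD was lower than dCBP in 4 members (background 18.9%) and lower than IHK-44 in 4 (background 16.4%). At 6 h it was lower than dCBP in 4 (background 21.7%), with the sum at -1.42 (SE 0.16, adjusted p = 1.34e-05). It was lower than IHK-44 in 4 (background 20.3%), with the sum at -1.19 (SE 0.16, adjusted p = 3.08e-05). HSPB1 was higher with JQAD than with IHK-44 at 6 h, by 0.50 (SE 0.17, adjusted p = 0.03; background 21.4% of genes called higher). That call was lost without either IHK-44 library at 6 h (0.48 and 0.52) or the 1000 nM JQAD library at 6 h (0.31, adjusted p = 0.247), and with limma on CPM (0.32, adjusted p = 0.109). Against A485, JQAD was lower at 6 h in 2 members, HSPA1A and BAG3 (background 6.13%), and in 0 members over both times (background 4.91%; 3 members at an unadjusted p under 0.05, and 1 member each with DESeq2 and limma on CPM). The 6 h count of 2 was 0 without the 1000 nM A485 or the 1000 nM JQAD library at 6 h and 4 without the 100 nM A485 library at 6 h. HSPA1A alone was called without any 1 of the IHK-44 or JQAD libraries at 2 h. Without the 100 nM JQAD library at 6 h both lost the call, and HSPB1 was called higher instead (0.63, adjusted p = 0.0482). DESeq2 and edgeR without the filter on low counts also called HSPB1 higher (0.49 in both). Over both times the count of 0 was 1 without the NT library of either time, the 100 nM A485 library at 6 h, either 100 nM dCBP library or the 1000 nM IHK-44 library at 6 h. The count for JQAD against IHK-44 over both times was 1 without the 1000 nM IHK-44 library at 6 h and 2 when the 100 nM JQAD library at 6 h was left out. On TPM, JQAD stayed below both compounds at 6 h in HSPA1A and HSPA1B, while DNAJB1 over both times was 0.02 above IHK-44. Over both times 6 other members, HSF1 and HSPA8 among them, were then higher with JQAD than with dCBP or IHK-44.

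Dose was compared within each compound over its 2 times. By edgeR 0 members were called for 1000 nM against 100 nM of A485 (background 0.929% of 13137 genes) or IHK-44 (background 0.107%). Likewise 0 were called for dCBP (background 0%, 150 genes at an unadjusted p under 0.05) and JQAD (background 0%, 262 genes). At an unadjusted p under 0.05 there was 1 member for A485, and 0 for the others. That member was HSPA1B, with 0.56 (95% interval 0.21 to 0.90, adjusted p = 0.165). DESeq2 and limma gave 0 members for dose. For the sum, the difference of 1000 nM from 100 nM was 0.38 (0.05 to 0.71) for A485, 0.01 (-0.32 to 0.34) for dCBP, 0.15 (-0.18 to 0.47) for IHK-44 and 0.13 (-0.20 to 0.46) for JQAD. Each rests on 2 pairs of libraries. Whether dose acts differently between compounds was not tested.

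Around these members, 70 other chaperone genes in 8 lists were examined, of which 66 passed the filter on low counts. At 6 h dCBP called 11 higher and 17 lower, with a median of -0.01, and IHK-44 called 7 higher and 17 lower, with a median of -0.04. Over all genes, 3074 (23.2%) were higher and 2964 (22.4%) lower with dCBP, and 2742 (20.7%) and 2842 (21.4%) with IHK-44. These chaperones moved in both directions, with the counts higher below those shares and the counts lower near them. A485 called 1 higher (HSPA13, an HSP70 relative) and 3 lower, where 7.87% of all genes were higher and 8.7% lower. JQAD called 0, as for all genes with JQAD.

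Of the 7 other small heat shock proteins, several of which are known from muscle, 5 were tested. With dCBP and with IHK-44 at 6 h 4 of the 5 fell, CRYAB, HSPB2, HSPB7 and HSPB8, where 22.4% of all genes were lower with dCBP and 21.4% with IHK-44. The fifth, HSPB6, gave 1.53 and 1.25 and was not called. HSPB8, a partner of BAG3, was at 5.36 CPM in DMSO and 4.89 CPM in NT at 6 h, 1.42 and 1.18 CPM with 100 nM and 1000 nM dCBP, and 0.774 and 1.08 CPM with IHK-44. It fell by 2.13 on the log2 scale with dCBP (SE 0.35, edgeR adjusted p = 0.000152) and by 2.62 with IHK-44 (SE 0.35, adjusted p = 2.9e-05), opposite in direction to BAG3. HSPB2 fell from 26.5 CPM in DMSO and 32.8 CPM in NT to 10.6 and 9.22 CPM with 100 nM and 1000 nM dCBP and 9.82 and 8.9 CPM with IHK-44. With A485 at 6 h CRYAB, HSPB2 and HSPB7 fell (8.7% of all genes were lower), and HSPB8 gave -0.88 (adjusted p = 0.0582). The muscle marker levels given above were lower in the same libraries, and their part in this fall was not tested.

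Among other HSP70 relatives, HSPA6, a strictly inducible HSP70, was near the limit of detection: 0.06 to 0.322 CPM in the controls, and at 6 h 1.7 and 0.516 CPM with 100 nM and 1000 nM dCBP and 1.01 and 1.56 CPM with IHK-44. It was called higher at 6 h with both compounds (1.75, adjusted p = 0.0271, and 1.93, adjusted p = 0.0142), values that at such counts depend on the prior count of the fit. HSPA2 was also called (2.13 and 2.00) from 0.529 to 0.644 CPM in the controls at 6 h. For HSPA12A the rise was 0.99 (dCBP, SE 0.21) and 0.93 (IHK-44, SE 0.20). Of the 9 genes in this list, 5 were called higher and 1 lower with each compound. Over all genes 23.2% were called higher and 22.4% lower with dCBP, and 20.7% and 21.4% with IHK-44. HSPA4L was lower with dCBP (-0.35, edgeR adjusted p = 0.0492) and HSPA1L with IHK-44 (-1.06, adjusted p = 0.0185). Of the cytosolic chaperonins and their mitochondrial relatives, 5 of 10 fell with dCBP and 3 with IHK-44, the latter near the share of all genes given above. CCT8 fell by 0.36 with dCBP (adjusted p = 0.00609), and HSPD1 fell by 0.35 with dCBP and 0.31 with IHK-44. SDF2L1, a cochaperone of the endoplasmic reticulum, rose with both (0.79 and 0.48), HSPA5, the main HSP70 of that compartment, with dCBP (0.30, adjusted p = 0.00526), and HSPA9, the mitochondrial HSP70, fell with both (-0.46 and -0.45). In the same list HSP90B1 fell with both (-0.31 and -0.24) and CANX with IHK-44 (-0.21). Of its 14 genes, 3 were called higher and 2 lower with dCBP, and 1 higher and 3 lower with IHK-44. These counts are at or below the shares of all genes. Among HSP70 cofactors BAG5 fell with both, by 0.61 and 0.41, and DNAJB4, a J-domain protein, fell by 0.92 and 0.62. With A485 at 6 h DNAJB4 was at 90.1 and 96.5 CPM, above 57.5 CPM in DMSO and 55.4 CPM in NT (0.64, adjusted p = 0.059, not called). Of the HSP90 list, UNC45A, a myosin chaperone that works with HSP90, rose with dCBP (0.47, adjusted p = 0.00991), and PPID, a cyclophilin cochaperone, rose with IHK-44 (0.41, adjusted p = 0.0362). HSP90AB1, the constitutive cytosolic HSP90, fell by 0.34 and 0.30 while HSP90AA1 was not called. HSBP1, which binds HSF1 trimers, fell by 0.27 (adjusted p = 0.02) and 0.29 (adjusted p = 0.0146).

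**Figure D4:**
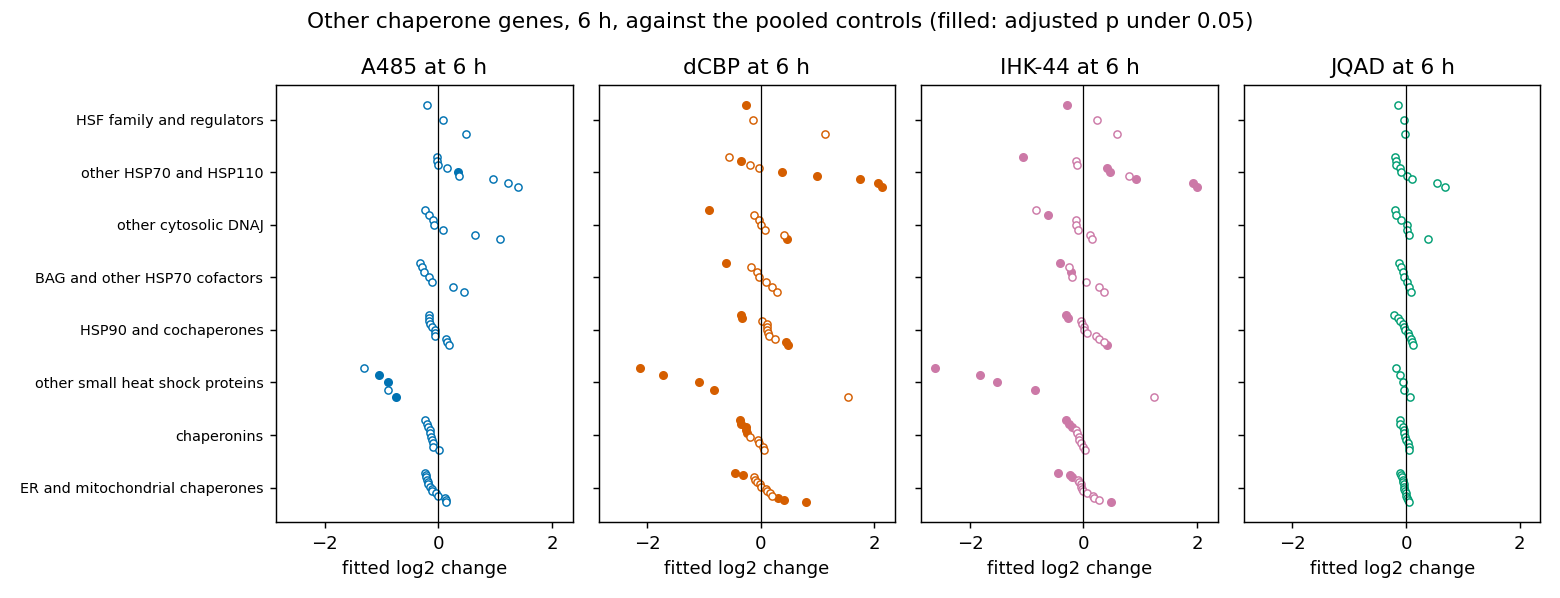
Fitted log2 change at 6 h against the pooled DMSO and NT libraries (x axis) of the 66 tested chaperone genes outside the group, 1 point per gene, by list (y axis) and compound (panel); filled points have an adjusted p under 0.05. With dCBP and IHK-44 4 of the 5 small heat shock proteins lie to the left, HSPB8 farthest at -2.13 and -2.62 and HSPB6 (not called) to the right, and no point is filled for JQAD.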

How the data were processed

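RH4 cells were profiled by RNA-seq, 1 library per condition. Per the submitters' processing notes, STAR 2.5.3a, RSEM 1.3.3 and the builds hg38 and mm10 were used, in roles that the notes do not give; the annotation is not given in the sources used here. Per the file headers, the authors deposited only coding genes, with an expected count (RSEM's estimate, 88.2% whole numbers), TPM, FPKM and a normalized count per gene. The normalized count, recomputed from the deposited expected counts, equals CPM over the coding rows. The deposited TPM and FPKM are scaled over all quantified genes; coding rows held 27.9% to 53.9% of TPM (27.9% to 35.4% with dCBP, 43.0% to 53.9% with A485), so TPM of a member moves with the other rows.

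Expected counts were rounded and fitted with edgeR 4.0.16 (R 4.3.3; TMM, filterByExpr, quasi-likelihood test, two-sided, Benjamini-Hochberg). The first fit had a level for DMSO, NT and each compound and a time term (13260 genes, 13 residual degrees of freedom). The fit with a time-by-compound term pooled DMSO and NT (10 residual degrees of freedom) and gave the effects at 2 h and 6 h, which, like the pairs at 6 h, were chosen after the data were seen. The dose term came from a fit to the 16 treated libraries, blocked by compound and time together (4 residual degrees of freedom). The fits were tested on simulated counts. The sum of HSPA1A and HSPA1B replaced both rows in a repeat of each fit. Alternatives were RLE scaling, no filter, DESeq2 1.42.0, limma 3.58.1 on log2(CPM + 1) and log2(TPM + 1), other controls and leaving out each library. Counting intervals are exact, at 95%, and cover counting error only. The members and the chaperone lists were chosen with earlier results of these data known. All members were named, and from each list the called gene with the largest change at 6 h for dCBP and for IHK-44; further list genes were named after their values were seen.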

Additional observations from a re-analysis of the deposited data

Results flagged for a closer look

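The effect of dCBP differed between 2 h and 6 h in HSPA1A by 0.91, in HSPA1B by 1.14 and in their sum by 1.02 (log2, interaction of time and compound, edgeR adjusted p = 0.0126, 0.0229 and 0.0127). For IHK-44 the differences were 0.79 in HSPA1A, 1.01 in HSPA1B and 0.89 in the sum (adjusted p = 0.0192, 0.0363 and 0.019). In each, the effect at 6 h was the larger, and each estimate compares 2 libraries per compound and time with 2 control libraries. HSPA1A and HSPA1B share reads, so they are not independent of each other or of the sum. Labelled conditions held 1 library each, so no check for outlying samples within a condition was possible.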

How the results depend on the processing

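Of 65 called values of single members or the sum, followed through 1722 values under alternatives, 1555 kept direction and call, 161 kept direction and lost the call, and 6 reversed. All 6 reversals came on TPM: DNAJB1 for IHK-44 against DMSO (-0.0005) and JQAD against IHK-44 (0.02), HSPA1A for dCBP (-0.02) and IHK-44 (-0.19) against A485 at 6 h, DNAJB1 for dCBP against A485 at 6 h (-0.39), and the sum for IHK-44 against A485 at 6 h (-0.08).

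On TPM the members called in either direction were 3 for IHK-44 against DMSO, 8 for dCBP and 9 for IHK-44 against A485, 4 for JQAD against A485, 7 for JQAD against dCBP, and 0 for the time dependence of dCBP or IHK-44. At 6 h they were 7 for A485, 7 for dCBP against A485, 8 for IHK-44 against A485 and 1 for JQAD against A485. At 2 h they were 4 for dCBP and 3 for IHK-44. For dCBP against DMSO TPM also called 3 members, of which 0 were shared. The share of all genes called on TPM was not computed, so no count on TPM has a background.

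For IHK-44 against DMSO the count of 1 became 0 with RLE scaling or its own libraries, 3 with DESeq2, limma on CPM or NT as reference, and 4 with DMSO and NT pooled. The fit on the dCBP libraries and controls gave 0. JQAD against A485 gave 1 with DESeq2 and 1 with limma on CPM. Without the filter, dCBP at 2 h gave 1 and JQAD against A485 at 6 h gave 4. With DMSO or NT alone as control, the time dependence of dCBP and IHK-44 and A485 at 6 h gave 0, and IHK-44 and JQAD against A485 at 6 h gave 1 each. Single-library ratios gave 11 pairs lower on TPM in place of 0, and 11 higher in place of 18 after centring, both without a computed share of all pairs.

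Leaving out each library gave 0 to 4 members for dCBP against DMSO, 0 to 3 for IHK-44 against DMSO, 0 to 1 for dCBP against A485 and for JQAD against A485, 1 to 4 for JQAD against IHK-44, 0 to 3 for the time dependence of dCBP and 0 to 2 for that of IHK-44. At 6 h the ranges were 0 to 4 for A485, 1 to 6 for dCBP against A485, 0 to 3 for IHK-44 against A485, 0 to 4 for JQAD against A485 and 0 to 3 for IHK-44 against dCBP; at 2 h it was 0 to 2 for dCBP. A condition left without a library, or a compound left with 1 at a time, is assumed to vary like the rest. The depth of 13466631 counts or more is ample for all members; the single library per condition sets the limit. The cause of these shifts was not tested.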

Other observations

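For HSF1, the sum, HSPH1, DNAJB1 and BAG3, the genes outside the group whose level followed each most closely over the 20 libraries were found by Pearson's r of log2(CPM + 1), among 10544 genes; none of those named is on the chaperone lists. For the sum of HSPA1A and HSPA1B they were SMAP2 (r = 0.991, 32.2 to 75.2 CPM), STIMATE (r = 0.991) and KIAA0513 (r = 0.99). For DNAJB1 they were SUFU (r = 0.984), ATP8B2 (r = 0.984) and ZDHHC18 (r = 0.981), and for BAG3 they were TRAF3IP1 (r = 0.981), PRKD2 (r = 0.972) and TAF4 (r = 0.969). For HSPH1, which followed time more than compound, they were KCTD9 (r = 0.966), SASS6 (r = 0.957) and AVL9 (r = 0.957). The closest to HSF1 was MFSD12 at r = 0.913, over a range of 34.2 to 55.4 CPM. These values are a description, since all points share the same libraries and scaling.

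CHORDC1, an HSP90 cochaperone, had the largest time term of its list, 0.68 (SE 0.06, edgeR adjusted p = 8.29e-06). It went from 21.6 to 32.4 CPM in DMSO and from 22.2 to 31.6 CPM in NT between 2 h and 6 h, and stood at 46.2 CPM with 1000 nM dCBP at 6 h.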
